A study of Mus musculus with 12 samples.

Results

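The genes described here are 10 regulators of the G1 phase of the cell cycle, measured in mouse bone marrow cells: the D-type cyclins Ccnd1, Ccnd2 and Ccnd3, their kinases Cdk4 and Cdk6, the CIP/KIP inhibitors Cdkn1a, Cdkn1b and Cdkn1c, and the INK4 inhibitors Cdkn2c and Cdkn2d. They were taken by gene name from both deposited count tables, where each matched 1 of 55487 gene rows. The study transduced bone marrow cells with a retrovirus carrying the leukaemia fusion MLL::AF9 (MA9), and then gave MA9 cells or normal bone marrow cells (WT) a second retrovirus that was either a mock vector or a vector expressing sPrdm16. Total RNA of the cells was sequenced in 3 libraries for each of the 4 groups: MA9 mock, MA9 sPrdm16, WT mock and WT sPrdm16. MA9 cells of both arms were grown in culture with interleukin-3; the sources leave out the medium of the WT cells, the age and number of the mice, any sorting of the cells, and the time from transduction to harvest. Both arms of each background carry a retroviral vector, and expression from such a vector is not limited to 1 cell type. The sources do not say whether the 3 libraries of a group came from separate cultures, so a p-value measures only the spread between these libraries, which may be technical.

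D-type cyclins are made when growth factors are present, and they bind and activate the kinases CDK4 and CDK6. These kinases phosphorylate the RB protein, which releases E2F transcription factors and lets the cell enter S phase. INK4 proteins bind CDK4 and CDK6 directly and keep cyclin D out. CIP/KIP proteins block CDK2 complexes and also take part in assembling cyclin D with its kinases. In blood cells, CDK6 and cyclins D2 and D3 are the best known drivers of G1 progression, and CDK6 is a known dependency of MLL-rearranged leukaemia. PRDM16 is a zinc finger transcription factor of stem cells and brown fat, and sPrdm16 is its short form, which lacks the PR domain.

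Prdm16 counts followed the labels: 0 in all 3 MA9 mock libraries, 5353 to 8889 in MA9 sPrdm16, 0 to 22 with mock in WT cells and 708 to 950 with sPrdm16. Every MA9 sPrdm16 library thus held more Prdm16 counts than every WT sPrdm16 library, so background and Prdm16 level went together. The part of that level in the differences between backgrounds was not tested. Total estimated counts ranged from 17217159 to 37390945 per library. The MA9 mock libraries stood apart, because structural RNAs (ribosomal, small nuclear and nucleolar, signal recognition particle and mitochondrial rRNA and tRNA) made up 59.1 to 74.2% of their counts, against 18.6 to 18.8% in MA9 sPrdm16 and 1.41 to 2.46% in WT. Counts on nuclear protein-coding genes were therefore 3844575 to 7406100 in MA9 mock, fewest in replicate 3, against 16046138 to 28169232 in the other libraries. Levels are given as CPM, the counts of a gene scaled to a fixed library size, after TMM scaling, which sets the libraries to a common typical gene, so a change in MA9 cells is a change relative to that gene. In bulk samples, fewer cells of a type and less RNA per cell cannot be told apart.

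The G1 genes stood at different levels in the mock libraries of the 2 backgrounds. Per kilobase of gene length, on the scale of all 12 libraries, Cdk6 was the highest of the 10 in MA9 mock cells, at 50.4 ± 2.87 CPM per kb (SD, n = 3), followed by Cdk4 at 34.1 ± 3.03 and Ccnd3 at 26.4 ± 3.93. In WT mock cells Cdkn1a led at 232 CPM per kb, followed by Ccnd3 at 113 ± 2.09 and Cdk4 at 84.2 ± 2.94, with Cdk6 at 8.81 ± 0.202. Some neighbours in these orders overlapped: Cdkn2c (14.8) with Cdkn1a (13.7) in MA9 mock, Ccnd2 (37.6) with Cdkn2d (34.6) in WT mock, and the lowest WT mock genes, Ccnd1, Cdkn1b, Cdkn1c and Cdkn2c, each with the next. With sPrdm16 the MA9 order kept Cdk6 (56.4), Cdk4 (49.7) and Ccnd3 (32.1) at the top, and the levels of Cdkn1c (9.88), Cdkn2c (9.29) and Cdkn2d (9.24) overlapped. In WT sPrdm16 cells Cdkn1a stayed first at 165 CPM per kb, and Cdk4 (135) stood above Ccnd3 (59.4). On the CPM scale of 12 libraries, all 3 MA9 mock libraries exceeded all 3 WT mock libraries for Cdk6, Cdkn1b and Cdkn2c and lay below them for 6 genes; over all 16194 genes, 34.5% were higher and 37.9% lower in this way. Scaled to total counts, 2 of the 3 were higher. Background and deposited table coincide, so these levels are a description with no test.

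**Figure D1:**
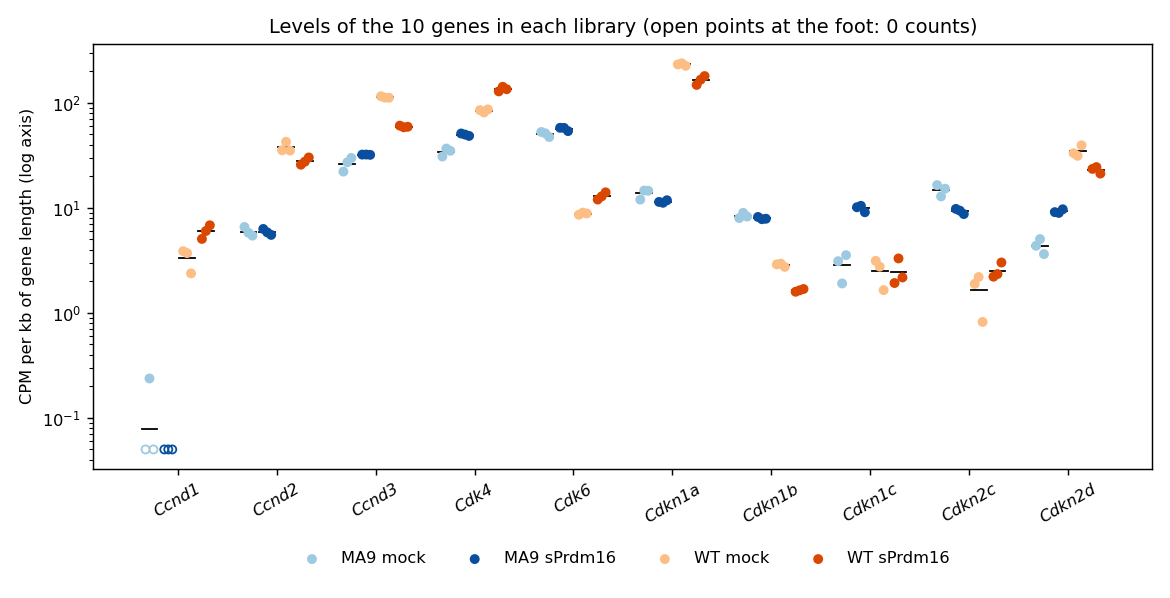
Level of each of the 10 genes in each of the 12 libraries, in CPM per kb of gene length on a log axis (TMM scaling over 12 libraries); points are libraries, bars are means of 3, and open points at the foot are libraries with 0 counts. Ccnd1 is at or near the foot in MA9 cells, Cdk6 is the highest MA9 gene, and Cdkn1a is the highest WT gene.

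In WT cells sPrdm16 changed 8 of the 10 genes, all tested (edgeR quasi-likelihood test, Benjamini-Hochberg adjusted p under 0.05), beside 34.1% of all 14063 genes tested. Both kinases and Ccnd1 rose, while Ccnd2, Ccnd3, Cdkn1a, Cdkn1b and Cdkn2d fell; 17.5% of all genes rose and 16.6% fell. In MA9 cells 5 of the 9 genes tested changed, beside 34.6% of all 14394: Cdk4, Cdkn1c and Cdkn2d rose, and Cdkn1a and Cdkn2c fell (17.0% and 17.5% of all genes), although with total counts and no scaling factor these last values turned to 1.09 and 0.65, below the median of 1.43 that all genes then had. Ccnd1 had too few counts to be tested in MA9 cells. The median log2 fold change of the genes tested was 0.07 in MA9 (0.03 over all genes) and −0.24 in WT (0.01 over all genes). The sPrdm16 effect itself differed between MA9 and WT, by an interaction test over 12 libraries, for 8 of the 10 genes, beside 28.0% of all 16194; Cdk4 and Cdkn1a did not pass it.

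**Figure D2:**
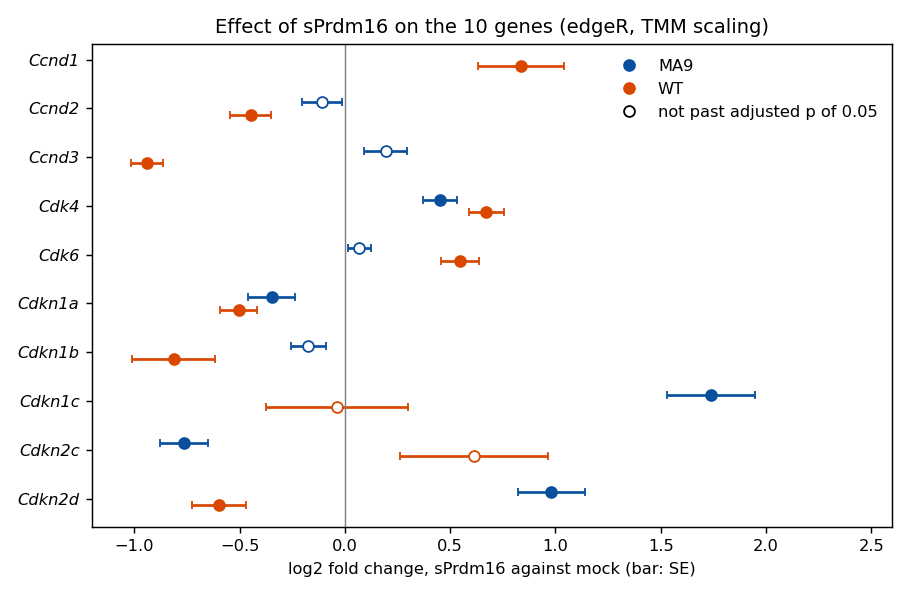
Effect of sPrdm16 on each gene in MA9 (blue) and WT (orange) cells: the x axis is the log2 fold change of sPrdm16 against mock with its SE, and open points did not pass an adjusted p of 0.05. With TMM scaling Ccnd3, Cdkn1c, Cdkn2c and Cdkn2d lie on opposite sides of 0 in the 2 backgrounds, and the values of Ccnd3 in MA9 and of Cdkn1c and Cdkn2c in WT did not pass; with total counts Cdkn2c in MA9 and Cdkn1c in WT turn sign.

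Ccnd3 encodes cyclin D3, a cyclin needed for the expansion of lymphoid and granulocyte precursors (ENSMUSG00000034165.16, chromosome 17, 47505051 to 47599691, plus strand, mm10). In WT cells it was at 557, 536 and 536 CPM with mock and at 289, 278 and 282 CPM with sPrdm16. Every WT sPrdm16 library was far below every WT mock library, a log2 fold change of −0.94 ± 0.08 (SE; adjusted p = 4.2e-07, edgeR), the smallest p of the 10 genes there. In MA9 cells the level was 70.6, 86.4 and 97.8 CPM with mock and 97.0, 95.6 and 97.6 CPM with sPrdm16, so the groups overlapped through mock replicate 3 (log2 0.19 ± 0.10, adjusted p = 0.186, edgeR). Without that replicate the MA9 value was 0.30 with an adjusted p of 0.0155. The effect differed between the backgrounds by 1.22 ± 0.13 (adjusted p = 1.9e-06, edgeR), the smallest interaction p of the 10. By Pearson correlation of log2 CPM centred within each table, over 12 libraries and 10334 genes, the protein-coding genes most like Ccnd3 were Ctsl, the lysosomal protease cathepsin L (r = 0.987), Stfa1, a stefin protease inhibitor (0.986), and Sytl3, a vesicle trafficking gene (0.982); this is a description, and the libraries share the 4 groups.

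Ccnd2, cyclin D2, which cytokine signals induce in blood cells, was at 279, 334 and 276 CPM in WT mock and at 201, 215 and 236 CPM in WT sPrdm16, with no overlap. It fell by 0.45 ± 0.10 on the log2 scale (adjusted p = 0.00262, edgeR). In MA9 cells Ccnd2 was near 30 CPM in each library, with overlapping groups (34.4, 30.3 and 29.2 against 31.2, 28.5 and 27.7 CPM; log2 −0.11 ± 0.10, adjusted p = 0.417, edgeR). The difference between backgrounds, 0.42 ± 0.15, had an adjusted p of 0.0381 (edgeR) and was lost in the fits without 7 of the 12 libraries in turn, with adjusted p up to 0.0949. Ccnd1, cyclin D1, is known chiefly outside blood. It rose in WT cells from 18.0, 17.2 and 11.0 CPM to 23.4, 27.8 and 31.5 CPM (log2 0.84 ± 0.20, adjusted p = 0.00561, edgeR), and missed the threshold when all 12 libraries were fitted together (adjusted p = 0.0898). The MA9 mock libraries held 0, 12 and 0 counts of it and every MA9 sPrdm16 library 0. A count of 0 allows 3 counts, or 0.0481 to 0.0802 CPM in MA9 sPrdm16. In MA9 mock replicates 1 and 3 it allows 0.179 and 0.365 CPM. Its interaction call (adjusted p = 0.00436) rests on those 12 counts: without MA9 mock replicate 2 the adjusted p was 0.99996. Exons of Ccnd1 share 23.4% of their bases with LTO1 on the opposite strand, and how strand was recorded is not given in the sources used here; LTO1 had 56 to 512 counts over the 12 libraries, MA9 ones included.

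Within the cyclin D class, shares of counts per kb do not depend on the scaling of a library. Ccnd3 held 74.7, 70.8 and 74.9% of the class in WT mock and 66.3, 63.6 and 61.5% in WT sPrdm16, a shift with no overlap. Ccnd1 held 2.14 ± 0.484% (SD, n = 3) of it in WT mock and 6.39 ± 0.791% in WT sPrdm16. In MA9 cells Ccnd3 held 81.2 ± 3.80% with mock and 84.5 ± 0.826% with sPrdm16, and the groups overlapped.

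Cdk4 rose in both backgrounds (ENSMUSG00000006728.12, chromosome 10, 127063534 to 127067920, plus strand, mm10). In MA9 cells it was at 52.2, 62.2 and 60.8 CPM with mock and at 82.0, 78.8 and 78.6 CPM with sPrdm16. The groups did not overlap, and the log2 fold change was 0.45 ± 0.08 (adjusted p = 0.00204, edgeR). In WT cells Cdk4 went from 218, 206 and 221 CPM to 326, 360 and 342 CPM (log2 0.67 ± 0.08, adjusted p = 2.3e-05, edgeR). The effects differed by −0.14 (adjusted p = 0.438, edgeR). Exons of Cdk4 share 19.7% of their bases with Tspan31, a tetraspanin gene on the opposite strand, so some reads could be counted to either gene. Tspan31 spanned 101 to 166 CPM with mock and 131 to 149 CPM with sPrdm16 in WT cells, which overlapped, and at 14.4 to 19.3 CPM and 24.0 to 26.1 CPM in the MA9 groups, which did not.

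Cdk6, the other cyclin D kinase (ENSMUSG00000040274.11, chromosome 5, 3341485 to 3531008, plus strand), rose in WT cells from 124, 129 and 127 CPM to 171, 183 and 200 CPM (log2 0.55 ± 0.09, adjusted p = 0.000317, edgeR). In MA9 cells it was at 503, 488 and 462 CPM with mock and 522, 512 and 491 CPM with sPrdm16, which overlapped (log2 0.07 ± 0.06, adjusted p = 0.373, edgeR). The effect was lower in MA9 than in WT by −0.39 ± 0.11 (adjusted p = 0.0151, edgeR), a call that missed the threshold without MA9 sPrdm16 replicate 3 (adjusted p = 0.0615) or WT sPrdm16 replicate 3 (0.0537) and that turned to 0.75 with total counts. The kinase balance shifted within MA9 libraries: Cdk6 over Cdk4 per kb was 1.71, 1.40 and 1.35 with mock and 1.13, 1.16 and 1.11 with sPrdm16. In WT cells the same ratio was 0.105 ± 0.00563 and 0.0960 ± 0.00724 (SD, n = 3), with overlapping groups.

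The bases just before the annotated starts of Cdk4, which rose in both backgrounds, and Ccnd3, which had the smallest interaction p of the 10, are shown to let the reader see what the windows hold. They are the 250 bases upstream from RefSeq (GRCm38.p6), plus strand, 5′ to 3′, at chr10:127063285-127063534 and chr17:47504801-47505050; 7 of the 10 genes had such a window, and Ccnd3 has another listed start, whose window at chr17:47593217-47593466 holds 1 GC box match and is not shown. Capitals mark matches, on either strand, to any of 5 motifs: the E-box of MYC family factors CACGTG, the SP1 GC box GGGCGG, the E2F forms TTTCCCGC or TTTGGCGC, the STAT form TTCNNNGAA and the TATA box TATAAA.
Cdk4: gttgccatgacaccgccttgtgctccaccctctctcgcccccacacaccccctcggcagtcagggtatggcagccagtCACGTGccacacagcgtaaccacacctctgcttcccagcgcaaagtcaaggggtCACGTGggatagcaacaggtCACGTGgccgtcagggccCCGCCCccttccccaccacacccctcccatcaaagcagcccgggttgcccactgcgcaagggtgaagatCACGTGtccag
Ccnd3: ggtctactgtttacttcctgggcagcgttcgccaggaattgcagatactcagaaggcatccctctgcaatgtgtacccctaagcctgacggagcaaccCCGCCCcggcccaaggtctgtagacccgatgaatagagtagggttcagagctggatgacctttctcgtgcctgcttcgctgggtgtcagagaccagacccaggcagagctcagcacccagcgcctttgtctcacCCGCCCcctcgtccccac
The Cdk4 window holds 4 E-box matches and 1 GC box match, and the Ccnd3 window shown holds 2 GC box matches and none of the other motifs; no match overlaps another. Of all 32851 windows, 6.02% hold an E-box match and 7 windows, or 0.0213%, hold at least 4. A GC box match is present in 32.7% of windows, an E2F match in 1.3%, a STAT match in 7.02% and a TATA match in 12.4%. These are matches of letters and not known binding sites in these cells. Myc, whose protein binds E-boxes, rose in WT cells by 1.59 ± 0.10 on the log2 scale (adjusted p = 2.0e-08, edgeR), and in MA9 cells its value was 0.11 (adjusted p = 0.207, edgeR). The part of Myc in the changes of Cdk4 was not tested.

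Among the CIP/KIP genes, Cdkn1a, the p53 target that encodes p21, had the highest WT level. It was at 603, 614 and 582 CPM in WT mock and at 381, 426 and 462 CPM in WT sPrdm16, with no overlap (log2 −0.50 ± 0.09, adjusted p = 0.000445, edgeR). In MA9 cells it was at 20.6, 25.1 and 25.7 CPM with mock and 18.5, 17.9 and 19.4 CPM with sPrdm16, again without overlap. The MA9 value of −0.35 ± 0.11 (adjusted p = 0.0384, edgeR) missed the threshold without each MA9 library in turn except mock replicate 1 (adjusted p 0.0525 to 0.160), with the replicate block (0.0730), with no filter on low counts (0.140) and in the fit of 12 libraries (0.0632). The effects of sPrdm16 on Cdkn1a differed between backgrounds by 0.24 (adjusted p = 0.203, edgeR). Cdkn1b, p27, a brake on CDK2 in resting cells, fell in WT cells from 16.4, 16.6 and 15.5 CPM to 8.94, 9.20 and 9.48 CPM (log2 −0.81 ± 0.20, adjusted p = 0.00553, edgeR). In MA9 cells Cdkn1b was at 30.1, 33.7 and 31.9 CPM with mock and 29.2, 27.3 and 28.4 CPM with sPrdm16, which did not overlap but did not pass the test (log2 −0.17 ± 0.08, adjusted p = 0.149, edgeR). On the scale of 12 libraries these groups overlapped, at 36.3 to 40.8 and 35.5 to 37.2 CPM. The interaction of Cdkn1b was 0.72 ± 0.17 (adjusted p = 0.00423, edgeR).

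Cdkn1c, p57, an imprinted gene that keeps blood stem cells quiescent, had the largest change among the 9 genes tested in MA9 cells (ENSMUSG00000037664.13, chromosome 7, 143458339 to 143461050, minus strand). It was at 4.88, 2.99 and 5.72 CPM in MA9 mock and at 15.1, 15.3 and 13.7 CPM in MA9 sPrdm16. Every sPrdm16 library was above every mock library, a log2 fold change of 1.74 ± 0.21 (adjusted p = 0.000265, edgeR). In WT cells it was at 7.42, 6.49 and 3.89 CPM with mock and 4.52, 7.73 and 5.10 CPM with sPrdm16, with overlapping groups (log2 −0.04 ± 0.34, adjusted p = 0.945, edgeR). The effect differed between the backgrounds by 1.84 ± 0.40 (adjusted p = 0.00212, edgeR). Within MA9 libraries its share of CIP/KIP counts per kb was 13.5, 7.48 and 13.5% with mock and 34.1, 35.5 and 31.6% with sPrdm16, while that of Cdkn1a was 54.8 ± 2.73% and 39.1 ± 1.68%. In WT cells Cdkn1a held 97.7 ± 0.316% and 97.6 ± 0.405% of the class. Exons of Cdkn1c overlap an antisense gene, Gm44732, which had 0 to 2 counts in any library.

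The INK4 genes Cdkn2c (p18, ENSMUSG00000028551.14, chromosome 4, 109660876 to 109667189) and Cdkn2d (p19, ENSMUSG00000096472.2, chromosome 9, 21288410 to 21291407), both on the minus strand, moved in opposite directions in MA9 cells relative to the typical gene. Cdkn2c, a G1 brake of stem and progenitor cells, fell from 33.6, 26.2 and 31.9 CPM to 18.9, 17.9 and 17.1 CPM (log2 −0.77 ± 0.11, adjusted p = 0.000846, edgeR). Cdkn2d, an INK4 gene that many resting and maturing cells express, rose from 5.12, 5.92 and 4.38 CPM to 10.1, 9.81 and 10.9 CPM (log2 0.98 ± 0.16, adjusted p = 0.00142, edgeR). Neither pair of groups overlapped. The ratio of Cdkn2c to Cdkn2d per kb, taken within a library, was 3.78, 2.55 and 4.19 in MA9 mock and 1.07, 1.05 and 0.901 in MA9 sPrdm16. In WT cells Cdkn2d fell, from 58.9, 55.2 and 69.6 CPM to 41.3, 42.9 and 37.2 CPM (log2 −0.60 ± 0.13, adjusted p = 0.00243, edgeR), while Cdkn2c was at 5.82, 6.72 and 2.51 CPM with mock and 6.75, 7.13 and 9.20 CPM with sPrdm16 (log2 0.62 ± 0.35, adjusted p = 0.198, edgeR). The interaction was −1.30 ± 0.34 for Cdkn2c (adjusted p = 0.0079, edgeR) and 1.65 ± 0.20 for Cdkn2d (adjusted p = 1.1e-05). With total counts the MA9 value of Cdkn2c turned, as given above, and its interaction was −0.14 (adjusted p = 0.837).

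**Figure D3:**
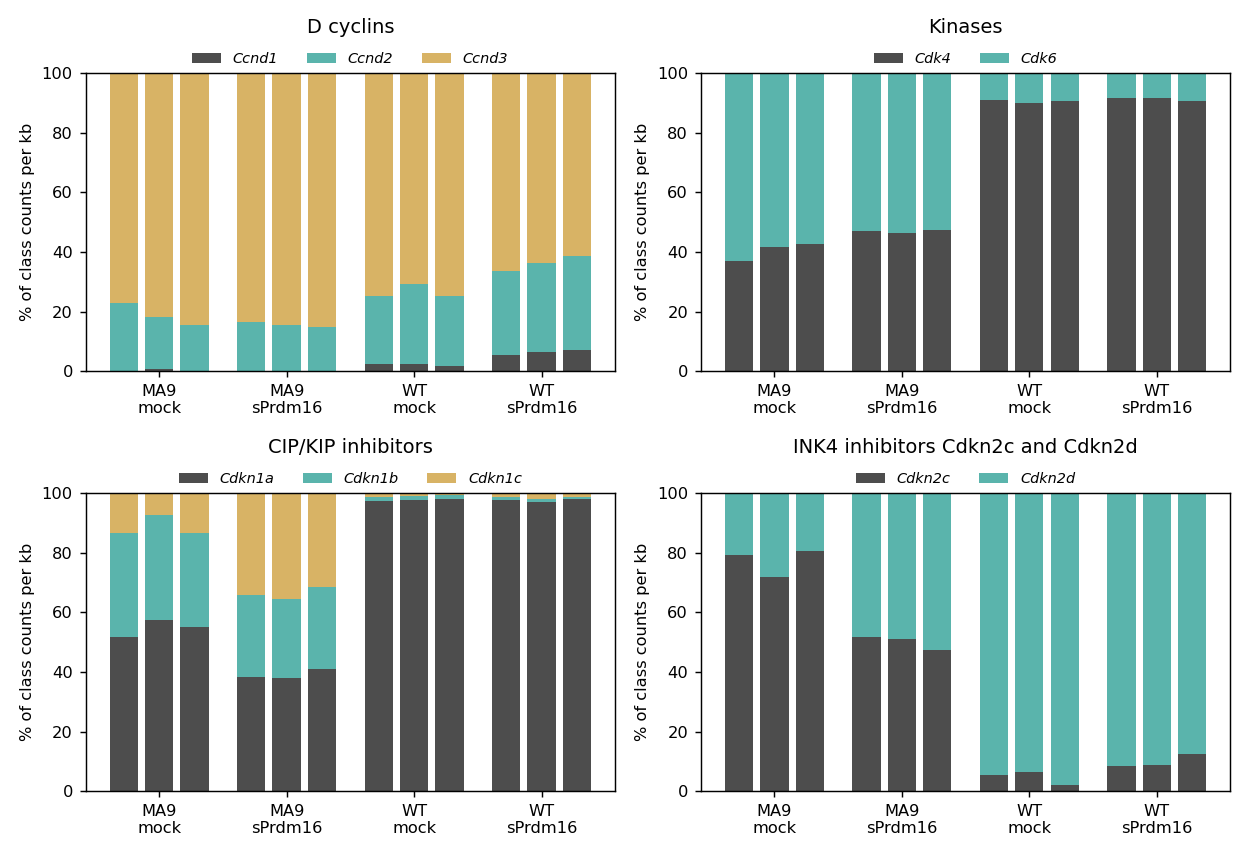
Makeup of each class in each library: bars are libraries and segments are the percent of the counts per kb of that class (the D cyclins, the kinases, the CIP/KIP inhibitors and the INK4 genes Cdkn2c and Cdkn2d). In MA9 cells the Cdkn1c segment grows from 11.5% to 33.7% of CIP/KIP on average and the Cdkn2c segment shrinks from 77.2% to 50.1%, and in WT cells the Ccnd3 segment shrinks from 73.5% to 63.8%.

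The balance of cyclins and inhibitors against their kinases moved in WT cells. D cyclins over the sum of Cdk4 and Cdk6, per kb within a library, went from 1.66 ± 0.0984 (SD, n = 3) in WT mock to 0.630 ± 0.0317 in WT sPrdm16. CIP/KIP counts over the same kinases went from 2.55 ± 0.152 to 1.14 ± 0.0831, and those of Cdkn2c and Cdkn2d from 0.389 ± 0.0282 to 0.173 ± 0.0101. The groups did not overlap in any of these 3 ratios. In MA9 cells the cyclin ratio was 0.383 ± 0.0436 and 0.358 ± 0.00779 and the CIP/KIP ratio 0.295 ± 0.0229 and 0.276 ± 0.00475, both with overlap, and the INK4 ratio was 0.227 ± 0.0230 and 0.175 ± 0.00489 without it. Cdkn1a over D cyclins was lower with sPrdm16 within MA9 libraries, at 0.294 to 0.315 against 0.412 to 0.440 with mock, and was higher with sPrdm16 in WT cells, at 1.62 to 1.87 against a mock range whose highest value was 1.51. These ratios were not tested.

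The other INK4 genes, Cdkn2a and Cdkn2b, fell in WT cells. Cdkn2b, a target of TGF-beta signalling, had 301, 105 and 251 counts in WT mock and 35, 37 and 26 in WT sPrdm16 (log2 −2.85 ± 0.38, adjusted p = 4.9e-05, edgeR). Cdkn2a, which encodes an INK4 protein and the p53 activator ARF, had 43, 30 and 60 counts in WT mock and 2 in each WT sPrdm16 library (log2 −4.50 ± 0.71, adjusted p = 0.000213, edgeR). Both had at most 8 counts in any MA9 library and were not tested there.

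Of 13 genes of the RB and E2F step, 1 rose and 1 fell in MA9 cells and 4 rose and 3 fell in WT cells. Over all genes tested, 34.6% were called in MA9 cells and 34.1% in WT cells. E2f1 fell in MA9 (log2 −0.48, adjusted p = 0.00573, edgeR; 0.94 with total counts) and Tfdp2, a partner of the E2F proteins, rose (0.49, adjusted p = 0.0136; lost without MA9 sPrdm16 replicate 1, adjusted p = 0.0667, or replicate 2, 0.0600). In WT cells E2f2 (−1.32, adjusted p = 2.1e-05) and Rb1, the RB gene itself (−1.08, adjusted p = 0.000252), fell, and E2f6, a repressor of E2F targets, rose (1.24, adjusted p = 0.000367). For the cyclin E and A step with CDK2, 8 genes were tested: Cdc25a, the phosphatase that activates CDK2, fell in MA9 (−0.82, adjusted p = 9.4e-05, edgeR; 0.58 with total counts), and Cdk7, of the CDK-activating kinase, rose in WT (0.60, adjusted p = 0.00436). The median log2 fold changes of these lists lay between 0.03 and 0.15, beside 0.03 for all genes in MA9 and 0.01 in WT.

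Of 12 tested genes for the turnover and folding of D cyclins and inhibitors, 1 rose and none fell in MA9 cells, and 5 rose and 3 fell in WT cells. This count and that of the inducers below stand beside 34.6% of all genes called in MA9 and 34.1% in WT. Cks1b, the SCF cofactor that targets p27 for destruction, rose in both, by 0.57 in MA9 (adjusted p = 0.000829, edgeR) and 0.85 in WT (adjusted p = 0.000126). Cdc37, the chaperone that loads CDK4, rose in WT (0.68, adjusted p = 2.6e-05), and Rbx1, a subunit of that ligase, fell (−0.48, adjusted p = 0.000902). Of inducers of cyclin D, 2 rose and 5 fell of 16 tested in MA9, and 8 rose and 4 fell of 18 in WT. In MA9 the beta-catenin gene Ctnnb1 rose (0.84, adjusted p = 4.8e-05), and the immediate early genes Jun (−1.14, adjusted p = 7.3e-05; 0.25 with total counts) and Egr1 (−1.92, adjusted p = 0.00163; −0.39 with total counts, adjusted p = 0.340) fell. In WT, Myc and the kinase gene Pim3 (1.08, adjusted p = 4.1e-07) rose, and Csf2rb2, the beta chain specific to the mouse interleukin-3 receptor, fell (−1.46, adjusted p = 1.4e-08).

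Of 19 regulators of the inhibitors, 2 rose and 4 fell in MA9 cells and 3 rose and 5 fell in WT cells. Here too 34.6% of all genes tested were called in MA9 and 34.1% in WT. In MA9, Klf4, a factor known to activate Cdkn1a, fell by 4.31 on the log2 scale, from 5.00 to 8.30 CPM with mock to 0.19 to 0.51 CPM with sPrdm16 (adjusted p = 6.3e-05, edgeR). The TGF-beta receptor gene Tgfbr2 also fell (−1.85, adjusted p = 0.000351; −0.35 with total counts, adjusted p = 0.389), and Men1, a partner of MLL that is needed for Cdkn2c and Cdkn1b expression in endocrine cells, rose (1.07, adjusted p = 0.000214). In WT, the p53 gene Trp53 rose (0.68, adjusted p = 9.0e-05), and the granulocyte factor gene Cebpe (−1.38, adjusted p = 7.0e-05) and Klf6, another activator of Cdkn1a (−0.52, adjusted p = 0.000541), fell. Of 20 proliferation markers, 11 rose and none fell in MA9 (median 0.24), beside 17.0% and 17.5% of all genes tested. In WT cells 19 rose and none fell (median 0.99), beside 17.5% and 16.6% of all genes. The smallest p in WT belonged to the replication licensing genes Mcm5 (1.81), Mcm6 (1.53) and Mcm7 (1.65). In MA9 the smallest p belonged to Ccnb2, a mitotic cyclin (0.64), Mcm6 (0.34) and Mcm4 (0.41). The summed level of this list went in WT cells from 1105 to 1170 CPM with mock to 2069 to 2270 CPM with sPrdm16, and from 2879 to 3104 CPM to 3547 to 3678 CPM in MA9. By the interaction test, the sPrdm16 effect was lower in MA9 than in WT for 15 of the 20 markers and higher for 1. Of all 16194 genes, 1945 were lower and 2588 higher in that test. With total counts 342 of all 16194 were lower and 8177 higher. The differences of Mcm2, Mcm5 and Mcm7 then did not pass (adjusted p = 0.278, 0.420 and 0.503, edgeR).

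**Figure D4:**
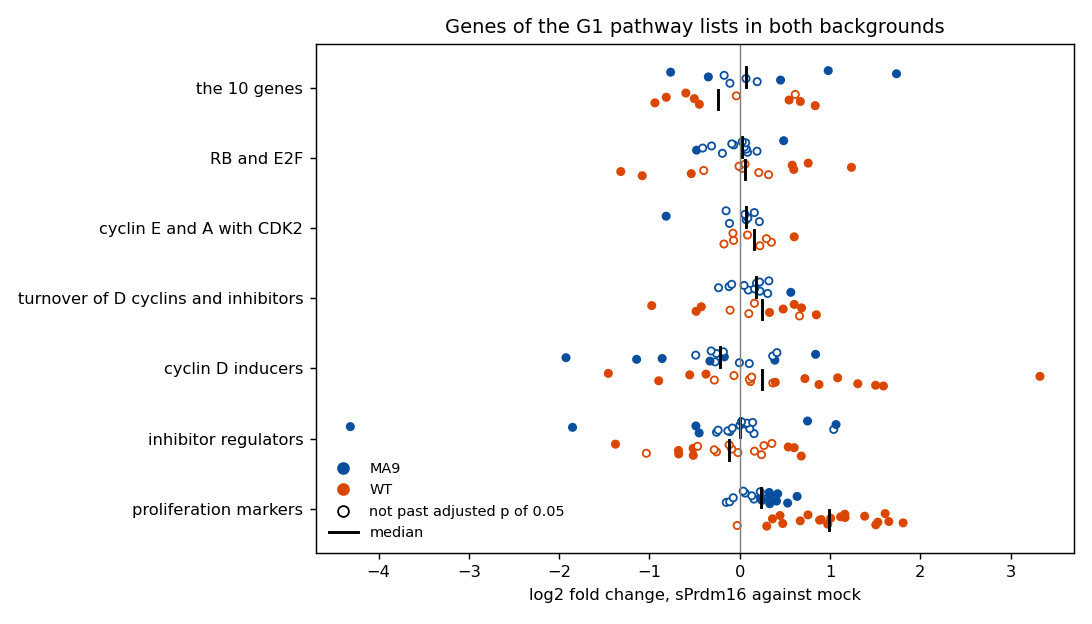
Log2 fold change of sPrdm16 against mock for every tested gene of the 10 and of the G1 pathway lists, in MA9 (blue, upper row of each list) and WT (orange, lower row); open points did not pass an adjusted p of 0.05 and black bars are medians. The proliferation markers lie furthest to the right in WT, with a median of 0.99.

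Markers of mature cells moved with the WT comparison, in which 17.5% of all genes tested rose and 16.6% fell. The summed level of 10 neutrophil genes was 25225 to 31106 CPM with mock and 6380 to 6754 CPM with sPrdm16 (2 rose, 7 fell), that of 9 mast cell and basophil genes 5186 to 5689 CPM and 468 to 505 CPM (9 fell, with Mcpt4 at 0 in WT sPrdm16), and that of 8 eosinophil genes 278 to 318 CPM and 15.9 to 21.9 CPM (4 of 5 tested fell, with Ccr3 and Ear1 at 0 in WT sPrdm16). Monocyte and macrophage genes summed to 27111 to 30654 CPM and 24199 to 25067 CPM (1 rose, 6 fell of 10). Megakaryocyte genes were lower with sPrdm16 (274 to 329 and 211 to 248 CPM, 3 of 6 fell), and erythroid (336 to 409 and 518 to 594 CPM, 3 rose and 3 fell of 8), stromal (72.5 to 77.6 and 96.9 to 125 CPM, 2 rose and 1 fell of 4, with Cdh5, Cxcl12 and Pdgfra at 0) and lymphoid sums (17.8 to 28.2 and 39.4 to 47.9 CPM, 1 of 1 rose, with Ncr1 and Pax5 at 0) were higher. The part of these cell types in the changes of the 10 genes was not tested.

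In MA9 cells, whose CPM scale is that of their own table, the neutrophil (1760 to 2214 and 2022 to 2079 CPM, 2 rose and 5 fell of 10) and monocyte sums (695 to 1043 and 863 to 875 CPM, 2 rose and 5 fell of 9) overlapped between the arms. The sums follow the most abundant genes. The median log2 fold change of the genes tested was −0.43 for the neutrophil and −2.46 for the monocyte list (0.03 over all genes). In WT cells these medians were −2.38 and −0.34. Eosinophil genes summed to 83.2 to 128 CPM with mock and 9.40 to 11.2 CPM with sPrdm16 (5 of 6 fell, with Ccr3 at 0), and stromal genes to 18.4 to 19.3 and 64.1 to 65.7 CPM (2 rose and 1 fell of 4; Cdh5, Col3a1 and Cxcl12 were at 0 with mock and Pdgfra with sPrdm16). Mast cell and basophil (at most 4.75 CPM, 6 of 9 genes at 0 in every library), erythroid (at most 2.01 CPM), lymphoid (at most 3.46 CPM) and megakaryocyte sums (at most 9.49 CPM, 1 rose and 1 fell of 4) were low, and no tested gene of the first 3 lists passed. Their part in the MA9 changes was not tested. Of all genes tested in MA9 cells, 17.0% rose and 17.5% fell. General blood cell markers, such as Ptprc and Spi1, summed to 633 to 744 CPM in MA9 and 1348 to 1788 CPM in WT; 1 rose and 1 fell of 5 tested in MA9, and 1 rose and 3 fell of 6 in WT, and Cd34 was at 0 in MA9 sPrdm16. The share of structural RNA also moved with the MA9 comparison, as given above, and its part in the changes was not tested.

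**Figure D5:**
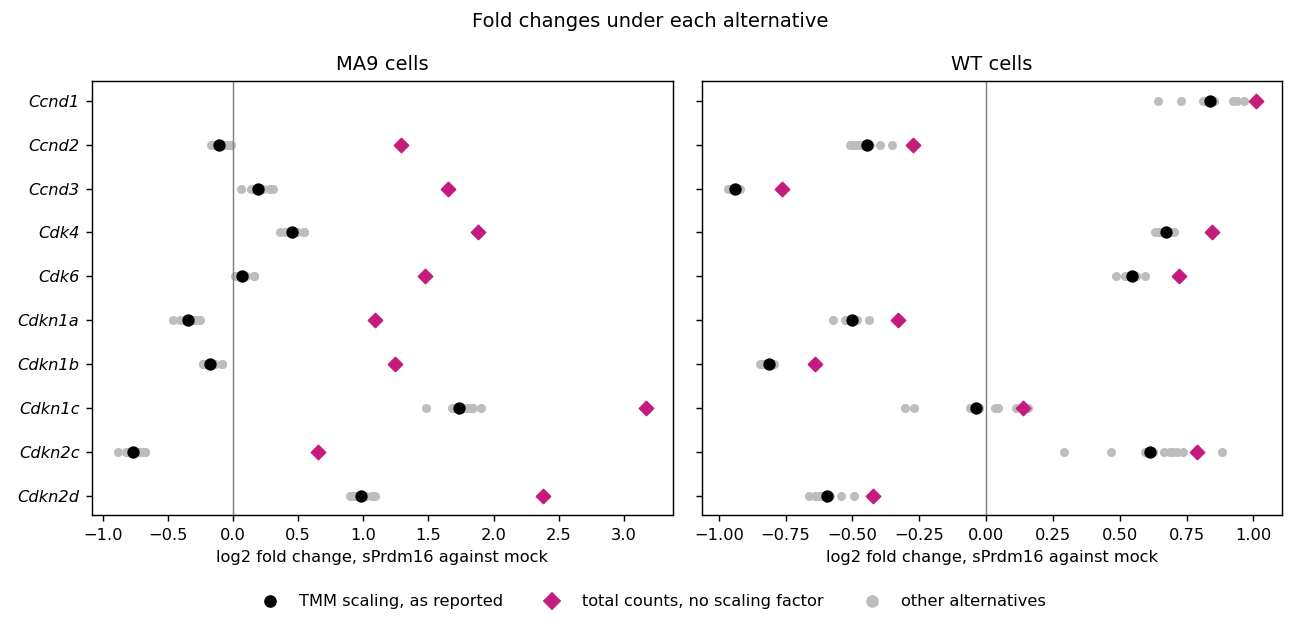
Log2 fold change of each gene as reported (black), with total counts and no scaling factor (pink) and under the other alternatives (grey), in MA9 (left) and WT (right) cells. In MA9 cells total counts move all 9 tested genes up with the median of all genes, which goes from 0.03 to 1.43, and in WT cells the shift is to 0.18.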

How the data were processed

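RNA-seq libraries were made with a Nextera XT kit from total RNA of 12 samples, per the labels' protocols, and processed with DRAGEN on the mouse build mm10, per the submitters' processing notes. The deposited tables, 1 for each background, hold estimated counts per gene, not normalized, as the authors left them; in each library 5.19 to 10.2% of values were fractional. How DRAGEN assigned reads shared by genes, and whether strand was used, is not given in the sources used here. Among the 10 genes, Cdkn1b, Cdkn2c and Cdkn2d were whole in every library.

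The expected counts were rounded to whole numbers and tested with the edgeR (4.0.16, R 4.3.3) quasi-likelihood test with TMM scaling, its own filter on low counts (minimum count 10) and Benjamini-Hochberg adjustment over all genes tested, at a threshold of 0.05. MA9 and WT libraries were fitted separately and the interaction over all 12. An SE is the log2 fold change over the root of its F statistic. CPM values use TMM over 6 libraries for comparisons and over 12 for levels across groups; per-kb values divide by the deposited gene length. Alternatives were RLE scaling, total counts, no filter, 5 CPM in 3 libraries, DESeq2 (1.42.0), limma-voom (3.58.1), nuclear protein-coding genes alone, the replicate number as a block, 12 libraries in 1 fit, and each library left out. The scripts were tested on simulated data. Exon overlaps are from GENCODE M21, in which 54349 of the 55487 gene identifiers were found.

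All 10 genes are described. Of the 6 other G1 lists and the proliferation list, up to 3 genes a comparison were named: the called genes with the smallest p whose mean reached 5 CPM in the higher of the compared groups. Cdkn2a, Tspan31, LTO1 and Gm44732 were named outside that rule, as was Myc in MA9 cells. The cell type lists (haematopoietic, neutrophil, monocyte and macrophage, erythroid, mast cell and basophil, eosinophil, lymphoid, stromal and endothelial, megakaryocyte) are given as sums. The 10 genes and all lists were chosen with earlier results of these data known. Ccnd1 had too few counts to be tested in MA9 cells, and limits from counts of 0 cover counting error only.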

Additional observations from a re-analysis of the deposited data

Results flagged for a closer look

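The effect of sPrdm16 differed between MA9 and WT cells by the interaction test (edgeR, adjusted p under 0.05) for 8 of the 10 genes, beside 28.0% of all 16194. On the log2 scale, MA9 effect minus WT effect, the differences were 1.84 for Cdkn1c, 1.65 for Cdkn2d, 1.22 for Ccnd3, 0.72 for Cdkn1b, 0.42 for Ccnd2, −0.39 for Cdk6 and −1.30 for Cdkn2c. For Ccnd1, at 0 in MA9 sPrdm16 libraries, only the adjusted p of 0.00436 is given, and it rests on 12 counts in 1 library. The calls of Ccnd2 and Cdk6 were lost in some of the other fits. Prdm16 counts in the sPrdm16 libraries also differed between the backgrounds, as given above.

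Genes of the pathway lists named for this difference were also picked out by that test. Of the RB and E2F step, the difference was 1.47 for E2f2 (adjusted p = 4.4e-05, edgeR), 0.97 for Rb1 (0.00224) and −1.22 for E2f6 (0.00116; −0.06 with total counts, adjusted p = 0.935). Cdc25a differed by −1.03 (adjusted p = 0.000912), Cdc37 by −0.55 (0.00262) and Rbx1 by 0.74 (0.0107). Among inducers of cyclin D, Myc differed by −1.40 (adjusted p = 2.4e-07), the cytokine signalling factor gene Stat5a by −1.50 (1.1e-05) and Csf2rb2 by 1.22 (5.2e-06). With total counts Myc was at −0.26 (adjusted p = 0.511, edgeR) and Stat5a at −0.33 (0.435). Among regulators of the inhibitors, Klf4 differed by −4.17 (adjusted p = 8.3e-08), Tgfbr2 by −1.48 (0.00113; −0.24 with total counts, adjusted p = 0.588) and Cebpe by 1.48 (0.000135). The replication licensing genes Mcm2, Mcm5 and Mcm7 differed by −1.57, −1.48 and −1.41 (adjusted p = 3.0e-07, 4.1e-07 and 1.7e-06). With total counts these were −0.40, −0.29 and −0.28, and none passed (adjusted p = 0.278, 0.420 and 0.503, edgeR). Cdkn2b had an adjusted p of 0.0106 (edgeR), and 0.0773 with limma-voom. Its MA9 side holds 0 counts in every mock library and 0, 6 and 5 counts with sPrdm16. A count of 0 allows 0.179 to 0.365 CPM in the mock libraries, above the 0.0962 and 0.134 CPM of sPrdm16 replicates 2 and 3. No change of Cdkn2b within MA9 cells is therefore shown.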

How the results depend on the processing

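In WT cells the 8 calls among the 10 genes kept their direction and side of the threshold without each library in turn and under every other alternative, except Ccnd1 in the fit of 12 libraries (adjusted p = 0.0898, edgeR). Scaling decided most in MA9 cells. With total counts the median of all genes moved from 0.03 to 1.43 in MA9, from 0.01 to 0.18 in WT and from 0.08 to 1.21 in the interaction. Genes called then numbered 12096 in MA9 (4979 with TMM) and 8519 in the interaction (4533), and the share of rises among calls went from 49.3 to 95.0% in MA9, from 51.3 to 71.0% in WT and from 57.1 to 96.0% in the interaction. Of the 10 genes, 8 rose and 0 fell in MA9 with total counts, and 8 were higher and 1 lower in the interaction. Over all genes tested, 11489 of 14394 rose and 607 fell in MA9 with total counts. In the interaction 8177 of 16194 were higher and 342 lower. In the fit of 12 libraries 59.5% of the MA9 calls were rises. Signs turned with total counts for Ccnd2 (1.29), Cdkn1a (1.09), Cdkn1b (1.24), Cdkn2c (0.65), E2f1 (0.94), Cdc25a (0.58) and Jun (0.25) in MA9, Cdkn1c (0.14) in WT, and Cdk4 (1.03), Cdk6 (0.75), Cdc25a (0.11) and Cdc37 (0.62) in the interaction. The calls of Egr1 and Tgfbr2 in MA9 and those of E2f6, Myc, Stat5a, Tgfbr2, Mcm2, Mcm5 and Mcm7 in the interaction were lost with total counts, at their values given beside the results. Leaving out 1 library gave 3306 to 6502 called genes in MA9, 1 to 3 of the 10 genes lower and 3 to 4 higher there, and −0.30 to 0.16 for Cdkn1c in WT. Without MA9 mock replicate 3, which had the most structural RNA, 4 rose and 1 fell in MA9. With the replicate number as a block 1 of the 10 genes fell in MA9, Cdkn1a being lost, and 4193 genes were called. Same-numbered mock and sPrdm16 libraries correlated at −0.08 to 0.07, and not every library correlated best with its own number. These correlations use deviations from means of only 3 libraries, so they cannot decide whether the numbers pair the libraries. Ccnd3 in MA9 passed with no filter (0.28, adjusted p = 0.00601) and in the fit of 12 libraries (0.29, 0.0260), and Cdkn1b without MA9 mock replicate 1 (0.0491). The interaction of Ccnd2 missed the threshold under RLE (adjusted p = 0.0646), DESeq2 (0.0599), limma-voom (0.0670) and the CPM filter (0.0682), and that of Cdk6 with no filter (0.125). The causes were not tested, other than that total counts leave the structural RNA in the scale. Ccnd1 had 12 counts in all over the MA9 libraries, too few to be tested there.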
